A study of Mus musculus with 75 samples.

Results

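The chromatin around 4 genes that mark non-neuronal cells of the brain was described in sorted mouse hypothalamic nuclei: Csf1r, Spi1 and Cx3cr1, which mark microglia, and Cldn5, which marks endothelial cells. A region belonged to a gene when it overlapped a fixed window of the mm9 genome: chr18:61250000-61300000 for Csf1r, chr2:90910000-90965000 for Spi1, chr9:119940000-119990000 for Cx3cr1 and chr16:18760000-18790000 for Cldn5. This gave 39 of the 175002 regions in both tables, namely 10 of 48634 ATAC-seq regions (open chromatin) and 29 of 126368 regions of H3K27ac, a mark on histone tails at enhancers and promoters in use. Csf1r held 4 ATAC and 10 H3K27ac regions, Spi1 held 3 and 10, Cx3cr1 held 2 and 6, and Cldn5 held 1 and 3. Regions are numbered along each window from the low-coordinate end, separately for each assay.

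All mice were LepRcre/+; SUN1-sfGFP/+, so Cre made under the leptin receptor gene put a green fluorescent tag on the nuclear envelope. GFP-positive nuclei were sorted as LepRb cells (cells with the long form of the leptin receptor) and GFP-negative nuclei as the remaining cells of the pooled hypothalami. Each sort came from mice that were fed freely (Fed), fasted for 36 h with saline at 12, 24 and 34 h (Fast), fasted with leptin at 5 mg/kg at 34 h (Lep2) or fasted with the same leptin dose at 12, 24 and 34 h (Lep24). Each of these 8 groups had 2 libraries per assay, 16 ATAC and 16 H3K27ac libraries in all, of 75 samples in the series. Sample titles code the treatments as FedSSS, FasSSS, FasSSL and FasLLL, in the order given. The letter S, read as saline in Fast, also stands in the Fed and Lep2 codes, so those mice may have had saline injections too. The age of the animals at sacrifice is labelled only as at least 2 months of growth. The labels do not say that replicates were separate pools, so p-values measure the spread between libraries, which may be technical.

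Microglia are the resident macrophages of the brain. Csf1r is the receptor for the growth factors CSF1 and IL-34 and is needed for microglial survival, Cx3cr1 is the receptor for the neuronal chemokine fractalkine, and Spi1 encodes PU.1, the transcription factor that directs the myeloid programme. Cldn5 encodes claudin-5, a tight junction protein of the blood-brain barrier. None of the 4 is a usual marker of neurons. In bulk nuclei, fewer cells of a type and less signal per cell cannot be told apart.

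PU.1 binds DNA with the core letters GGAA, and for that reason the promoters of the receptor gene Cx3cr1 and of Cldn5 are shown, as RefSeq gives them on GRCm38.p6 around the gene start, 5′ to 3′ on the gene's strand. Capitals mark GGAA on either strand (TTCC is its complement). The Cx3cr1 promoter lies at chr9:120068247-120068546 on the minus strand and the Cldn5 promoter at chr16:18776597-18776896 on the plus strand. Csf1r and Spi1 are named only.
Cx3cr1: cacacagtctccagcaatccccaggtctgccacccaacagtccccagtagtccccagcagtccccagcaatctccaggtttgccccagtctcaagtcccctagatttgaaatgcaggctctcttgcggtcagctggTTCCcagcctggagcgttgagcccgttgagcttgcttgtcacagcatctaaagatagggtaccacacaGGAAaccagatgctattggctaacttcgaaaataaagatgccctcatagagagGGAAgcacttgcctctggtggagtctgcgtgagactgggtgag
Cldn5: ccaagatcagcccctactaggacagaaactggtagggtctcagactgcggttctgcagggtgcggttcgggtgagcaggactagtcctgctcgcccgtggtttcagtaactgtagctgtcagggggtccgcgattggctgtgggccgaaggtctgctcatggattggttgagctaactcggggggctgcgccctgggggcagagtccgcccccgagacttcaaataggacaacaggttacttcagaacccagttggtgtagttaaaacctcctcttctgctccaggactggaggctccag
The Cx3cr1 promoter held 3 matches of GGAA on both strands together, with no overlap between them, and the Cldn5 promoter held 0. GGAA occurred in 96.0% of 32851 mouse promoters of this length, with a median of 3 matches. The longer GAGGAA, which contains GGAA and was also searched on both strands, occurred in 28.3% of them and in neither of these 2. The coordinates of these promoters cannot be laid on the mm9 regions below.

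The deposited values were normalized signal with 1 decimal, so read depth was unknown. The summed signal per library was 1232940 to 1415510 for ATAC and 9247620 to 10963300 for H3K27ac, and replicates of a group had a Pearson's r of 0.821 to 0.922 and 0.888 to 0.957 across regions. In H3K27ac, 6 libraries stood apart. They were the first replicates of both sorts in Fed, Lep2 and Lep24, where mitochondrial regions held 0.0750 to 0.238% of the signal against 0.0102 to 0.0384% in the other 10. Differences between sorts at the H3K27ac regions described below, and the H3K27ac window levels, are therefore also given for either set. After the regions in the lowest 10% of mean signal were left out, 9 of 10 ATAC members and 24 of 29 H3K27ac members were tested, among 43767 and 113725 regions. The untested members had mean signals of 3.36 for ATAC (Csf1r, region 3) and 3.90 to 5.79 for H3K27ac (Csf1r region 4, Spi1 regions 6, 7 and 9, and Cx3cr1 region 6). No mm9 annotation was used, so it was not read whether a region lies in the named gene or in a neighbour, and exons and introns are not given. In RefSeq's gene order Csf1r stands between Pdgfrb at lower coordinates and Hmgxb3 at higher ones, Spi1 between Slc39a13 and Mybpc3, Cx3cr1 between Xirp1 and Ccr8, and Cldn5 between Septin5 and Cdc45.

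The windows carried signal in both sorts, and they differed in how much. Signal was summed over a window's regions and divided by their length, which gives a level per kb of region that can be set side by side between genes. For ATAC in GFP-positive libraries the order was Spi1 at 32.2 ± 3.77 per kb (SD, n = 8), Csf1r at 21.6 ± 4.42, Cldn5 at 15.4 ± 4.88 and Cx3cr1 at 13.6 ± 2.70. Cldn5 and Cx3cr1, neighbours in that order, differed by less than their spread. In GFP-negative libraries Spi1 again led with 35.6 ± 4.56, before Csf1r at 19.0 ± 3.46, Cx3cr1 at 18.7 ± 3.88 and Cldn5 at 15.2 ± 4.57. There Csf1r, Cx3cr1 and Cldn5 lay within 1 SD of their neighbours. The lead of Spi1 rested on its region 1, which begins outside the window. That region held a mean of 103 of the window's 127 in GFP-positive libraries and 118 of 140 in GFP-negative ones. Spi1 regions 2 and 3 had 16.2 and 15.5 per kb over all libraries, near the levels of the other windows.

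For H3K27ac the Cx3cr1 and Spi1 windows carried less signal in GFP-positive libraries. Cx3cr1 carried 10.2 ± 3.51 per kb in GFP-positive libraries (range 6.77 to 16.2) and 18.2 ± 2.13 in GFP-negative ones (range 15.8 to 22.1), and the ranges met only at their edges. They were 6.77 to 8.45 against 15.8 to 17.6 in the 10 libraries and 13.1 to 16.2 against 19.7 to 22.1 in the 6. Spi1 carried 16.6 ± 2.95 against 21.4 ± 1.40, with 13.4 to 15.1 against 19.3 to 21.0 in the 10 libraries and 18.3 to 21.7 against 22.4 to 23.4 in the 6. Both windows thus separated the sorts within either set. Cldn5 carried 13.5 ± 2.62 against 16.5 ± 4.22, and its sorts overlapped in the 10 libraries (9.71 to 14.1 against 12.3 to 15.5) and in the 6 (13.0 to 19.0 against 17.2 to 25.2). The Csf1r window carried 16.7 ± 1.38 against 16.4 ± 1.44, nearly the same in either sort (means of 15.8 against 15.6 in the 10 libraries and 18.0 against 17.8 in the 6), although its single regions differed in both directions. These window totals are descriptions with no test.

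**Figure D1:**
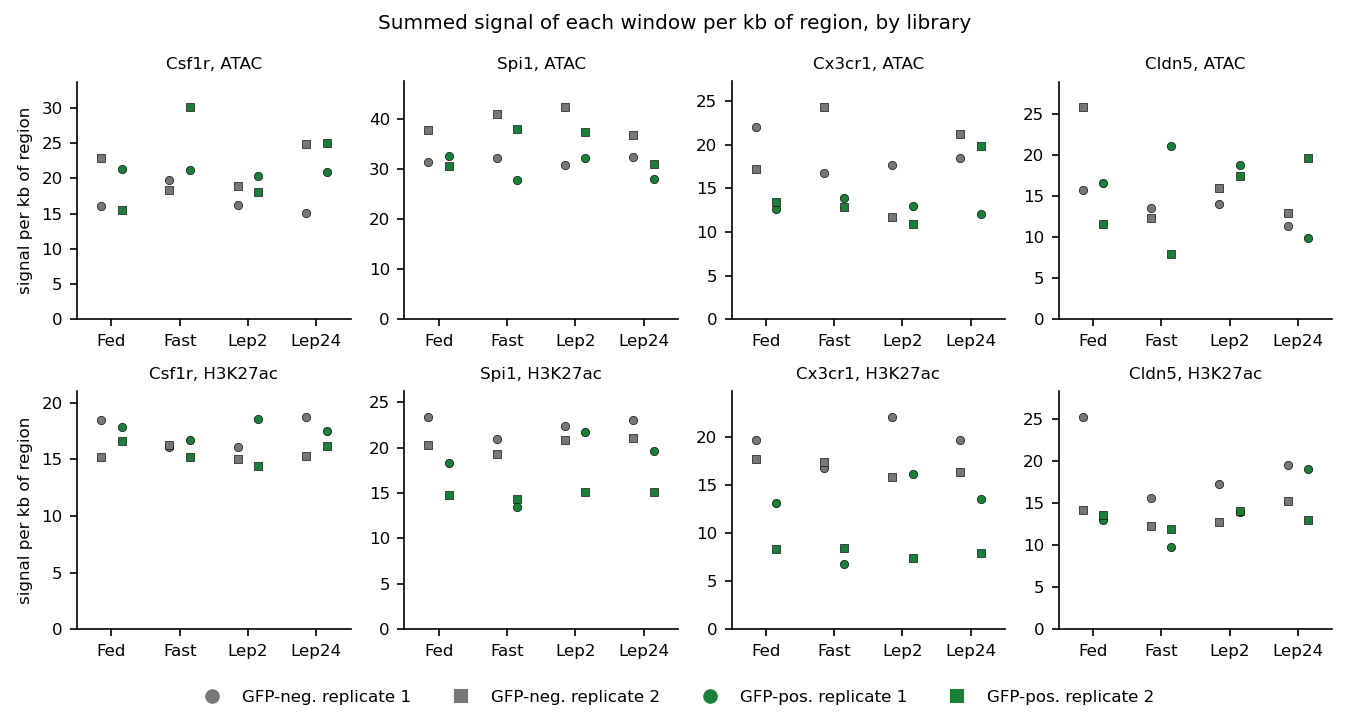
Summed signal of each gene's regions per kb of region (vertical axis, normalized signal per kb) in every library, by treatment (horizontal axis), with ATAC above and H3K27ac below; grey is GFP-negative, green GFP-positive, circles replicate 1 and squares replicate 2. In the H3K27ac panel of Cx3cr1 the GFP-positive libraries run from 6.77 to 16.2 and the GFP-negative ones from 15.8 to 22.1, while the 2 sorts mix in the panels of Csf1r.

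The comparison of GFP-positive with GFP-negative nuclei asks how LepRb cells differ in chromatin from other hypothalamic cells. Averaged over the 4 treatments, 3 of the 9 tested ATAC members were called at a limma adjusted p under 0.05, with 1 higher and 2 lower in GFP-positive nuclei, beside a background of 9.80% of all tested ATAC regions (4.66% higher and 5.13% lower). For H3K27ac, 9 of 24 members were called, 3 higher and 6 lower, beside a background of 9.22% (3.26% higher and 5.97% lower). Several of the called H3K27ac members adjoin one another (Cx3cr1 regions 1 to 3 and Csf1r regions 6 to 8), so they are not separate units. The median log2 difference was -0.01 over the tested ATAC members and -0.01 over all tested ATAC regions, and for H3K27ac -0.28 against 0.03. In the 10 H3K27ac libraries alone 13 members were called (background 32.4%), in the 6 alone 1 was (4.10%), and with all libraries and the set of 6 as a term 13 were (26.6%). By gene, calls fell to Csf1r (1 higher and 1 lower in ATAC, 3 higher and 1 lower in H3K27ac), Cx3cr1 (1 lower in ATAC, 4 lower in H3K27ac) and Spi1 (1 lower in H3K27ac), and Cldn5 had 0. Values of the 2 sorts did not overlap at 2 of 24 H3K27ac members, where 2.32% of all regions showed this, and at 0 of 9 ATAC members, where 1.60% did. For the 4 Cldn5 members, all tested, unadjusted limma p-values under 0.05 also numbered 0, where 25.2% of all ATAC and 24.3% of all H3K27ac regions had one.

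**Figure D2:**
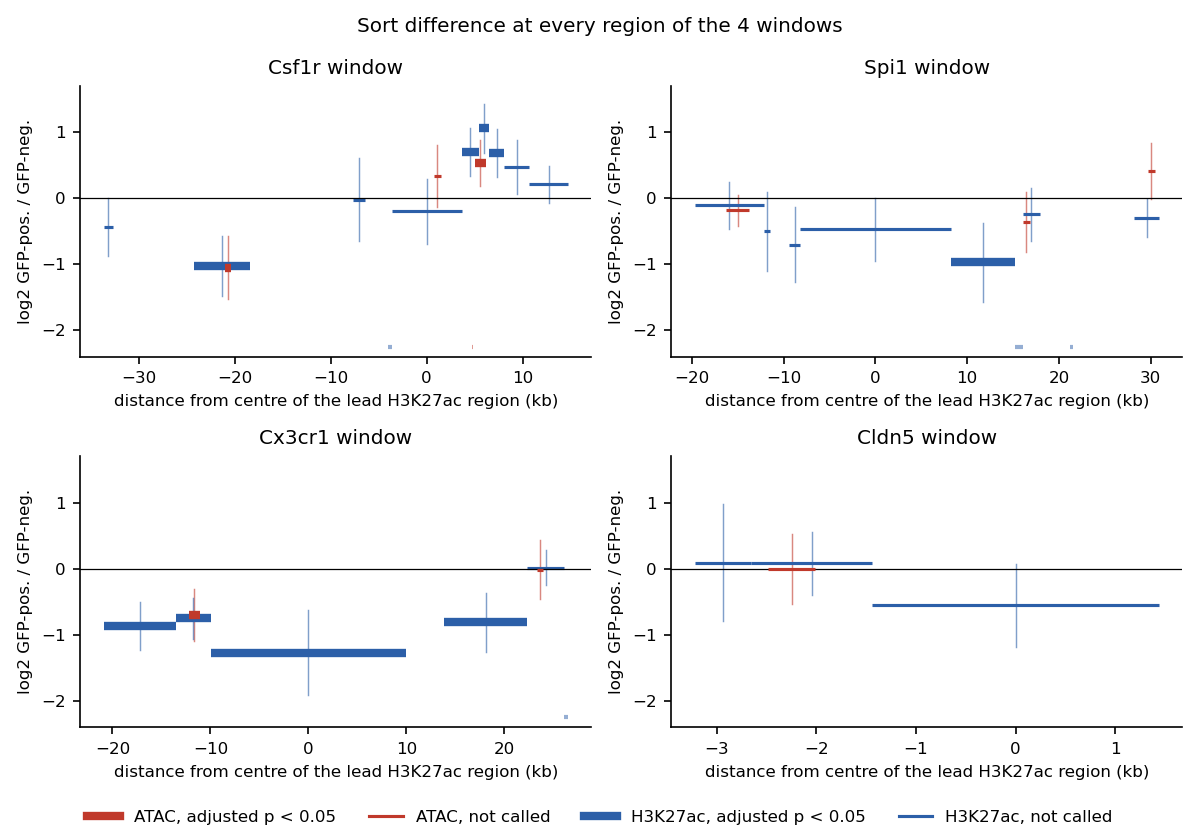
Difference between sorts (vertical axis, log2 of GFP-positive over GFP-negative on the log2(signal + 1) scale) for each region, drawn at its length along its window (horizontal axis, kb from the centre of the H3K27ac region with the most signal), with 95% intervals as thin lines; thick bars were called, and short marks at the bottom are untested regions. Csf1r shows a low region at the left (-1.03) and a run of higher regions at the right (0.68 to 1.06), Cx3cr1 mostly low regions (-0.75 to -1.27), and Cldn5 no call.

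The window of Cx3cr1, the fractalkine receptor, had the broadest loss of signal in GFP-positive nuclei. There 4 adjoining or close H3K27ac regions and 1 ATAC region within them were called lower. The H3K27ac region with the most signal, chr9:119948787-119968629 (region 3, 19843 bp), had a lowest, median and highest signal of 65.9, 110 and 332 in GFP-positive libraries and of 266, 302 and 481 in GFP-negative ones. GFP-positive libraries were lower in all 8 pairs of the same treatment and replicate number, and the overlap between sorts came from 1 GFP-positive library, Lep2 replicate 1. The numbers match libraries here only for counting, since the labels do not say that they share a pool. The means were 162 ± 98.7 and 346 ± 86.1 (SD, n = 8 each), a 2.41-fold lower level on the log2(signal + 1) scale (log2 -1.27, SE 0.30, limma adjusted p = 0.0193).

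Within either set of libraries the sorts separated at this Cx3cr1 region. The 10 libraries gave 65.9 to 111 against 266 to 302 (log2 -1.61, limma adjusted p = 1.48e-13), and the 6 gave 233 to 332 against 422 to 481 (log2 -0.71, limma adjusted p = 3.8e-05). The difference had the same direction in each set and was larger in the 10, and the difference between the sets was not tested. The 6 hold no replicate within a group, and neither do the 10 in Fed, Lep2 and Lep24. These fits assume the same sort difference in every treatment, and their p-values rest on that. Of all members called, this was the one that the 6 libraries alone also called.

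Region 1 of the Cx3cr1 window, chr9:119937811-119945162, which begins outside the window, ran from 43.5 to 98.7 in GFP-positive and from 102 to 138 in GFP-negative libraries, with medians of 55.5 and 114. It is 1 of the 2 members with no overlap between sorts. The log2 difference was -0.87 (SE 0.17, limma adjusted p = 0.00796), with -1.07 in the 10 libraries and -0.54 in the 6, where the adjusted p was 0.0522. Region 2, chr9:119945163-119948786, ran from 54.5 to 73.8 with a median of 63.1 in GFP-positive and from 69.2 to 147 with a median of 112 in GFP-negative libraries. GFP-positive libraries were close to one another there, and all 8 pairs had the same direction. It differed by log2 -0.75 (SE 0.14, limma adjusted p = 0.00764), with -0.92 in the 10 libraries and -0.46 in the 6 (adjusted p = 0.214).

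Region 4 of Cx3cr1, chr9:119972547-119981054, ran from 56.6 to 150 with a median of 82.0 in GFP-positive and from 123 to 205 with a median of 159 in GFP-negative libraries. All 8 pairs were lower in GFP-positive nuclei, by log2 -0.81 in the fit (SE 0.21, limma adjusted p = 0.0267). The 10 libraries gave -1.06 and the 6 gave -0.40 (adjusted p = 0.124). The next region, chr9:119981055-119984806 (region 5), was not called: it carried 52.8 ± 5.70 against 52.6 ± 8.19, a log2 difference of 0.02 with a 95% interval of -0.25 to 0.28. Its difference was -0.12 in the 10 libraries and 0.25 in the 6, of opposite sign. Leaving out 1 library in turn ended the call of region 3 in 4 of 16 cases and of region 4 in 7 of 16, with adjusted p up to 0.0581 and 0.0777, and of regions 1 and 2 in 0 of 16.

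In ATAC the Cx3cr1 region chr9:119946544-119947591 (region 1, 1048 bp), inside H3K27ac region 2, was also lower in GFP-positive nuclei. Its lowest, median and highest signals were 8.1, 11.6 and 22.4 in GFP-positive and 13.2, 18.65 and 28.3 in GFP-negative libraries. GFP-positive was lower in 8 of 8 pairs, and the overlap came from 1 high Lep24 library. The means were 12.3 ± 4.48 and 20.4 ± 5.27 (SD, n = 8 each), 1.63-fold lower on that scale (log2 -0.71, SE 0.19, limma adjusted p = 0.0208). The call was lost on leaving out Fast GFP-negative replicate 2 (adjusted p = 0.0699), Lep2 GFP-negative replicate 1 (0.0573), Lep24 GFP-negative replicate 2 (0.0702) or Lep24 GFP-positive replicate 1 (0.0578). The other ATAC region, chr9:119982066-119982673, inside H3K27ac region 5, carried 10.2 ± 1.60 against 10.6 ± 2.97 (log2 -0.01, 95% interval -0.46 to 0.43).

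**Figure D3:**
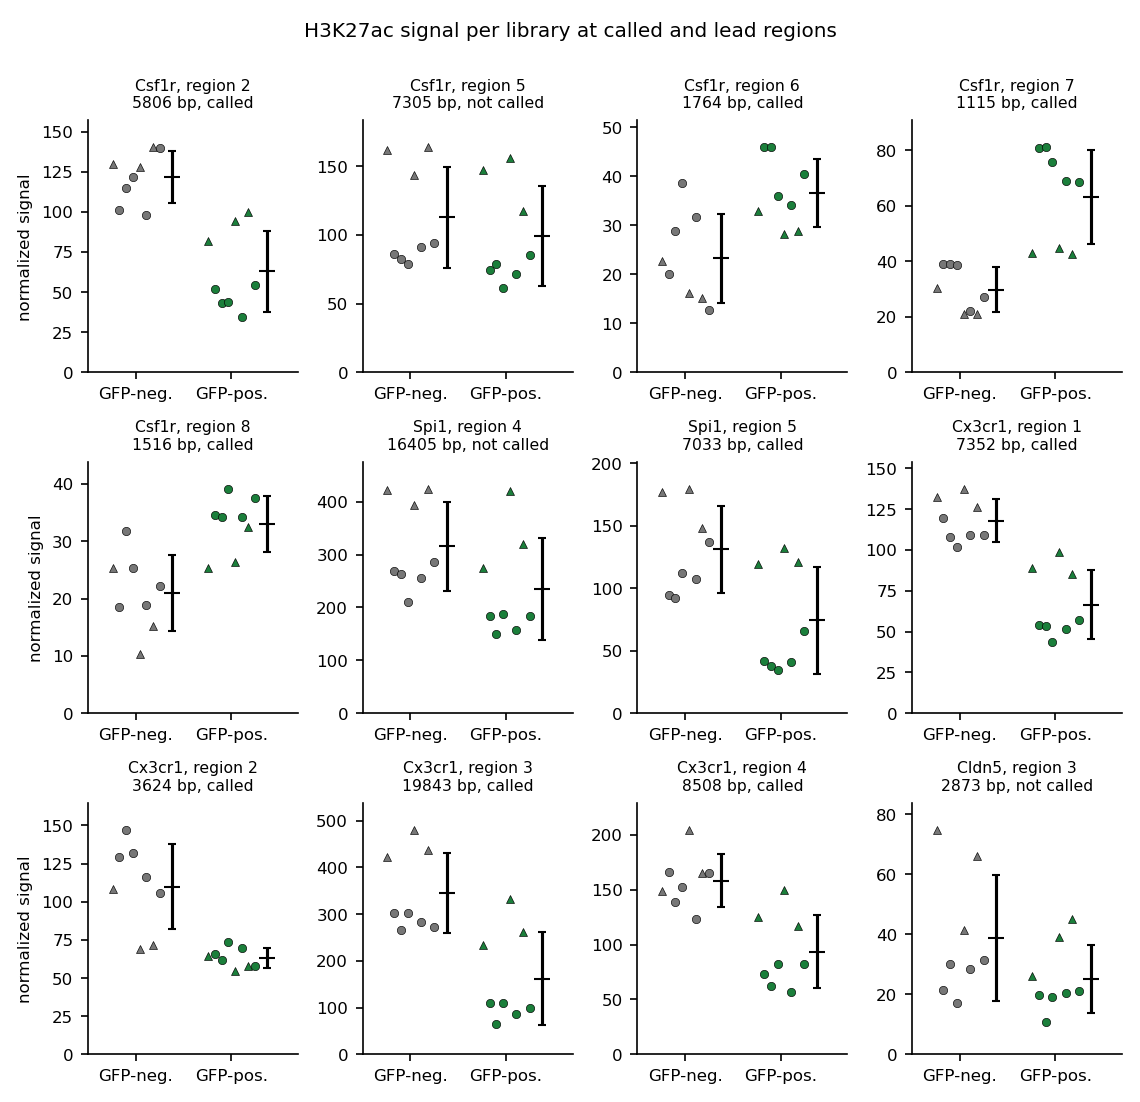
H3K27ac signal (vertical axis, normalized signal from 0) in every library at the regions called and at the region of each gene with the most signal, for GFP-negative (grey) and GFP-positive (green) libraries; triangles are the 6 libraries that stood apart, and bars give the mean and SD of 8 libraries. Cx3cr1 region 3 separates within each symbol (65.9 to 111 against 266 to 302 for circles), and Csf1r region 7 separates outright (42.4 to 81 against 20.9 to 39).

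The window of Csf1r, the CSF1 receptor, differed between the sorts in opposite directions at its 2 ends. Whether either end lies in Csf1r or in a neighbour was not read, and Hmgxb3 is the neighbour at higher coordinates. At the low-coordinate end, H3K27ac region 2, chr18:61264692-61270497, had a lowest, median and highest signal of 34.2, 53.1 and 99.8 in GFP-positive and of 98, 124.8 and 140 in GFP-negative libraries. The sorts touched only where the highest GFP-positive library met the lowest GFP-negative one. The means were 62.9 ± 25.3 and 122 ± 16.2 (SD, n = 8 each), 2.04-fold lower in GFP-positive nuclei (log2 -1.03, SE 0.21, limma adjusted p = 0.00963). The 10 libraries gave log2 -1.33 (34.2 to 54.2 against 98 to 140) and the 6 gave -0.53 (81.8 to 99.8 against 128 to 140, adjusted p = 0.0571). The ranges did not meet in either set.

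The ATAC region inside it, chr18:61267912-61268564 (region 1, 653 bp), was low in the same direction. Its lowest, median and highest signals were 4, 6.6 and 10.7 in GFP-positive and 6.8, 15.65 and 20 in GFP-negative libraries. All GFP-negative libraries but 1 (Lep24 replicate 1, at 6.8) were above every GFP-positive one. The means were 7.14 ± 2.47 and 15.9 ± 4.42 (SD, n = 8 each), 2.07-fold lower (log2 -1.05, SE 0.23, limma adjusted p = 0.00558), in 7 of 8 pairs. This was the member with the smallest adjusted p in ATAC, and it was called in all 16 fits that left out 1 library.

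At the high-coordinate end a run of adjoining H3K27ac regions of the Csf1r window was higher in GFP-positive nuclei. The strongest, region 7 at chr18:61294381-61295495 (1115 bp), had a lowest, median and highest signal of 42.4, 68.8 and 81 in GFP-positive and of 20.9, 28.55 and 39 in GFP-negative libraries. No GFP-negative library reached the lowest GFP-positive one. The means were 63.2 ± 17.0 and 29.7 ± 8.17 (SD, n = 8 each), 2.08-fold higher (log2 1.06, SE 0.17, limma adjusted p = 0.00321). The 10 libraries gave log2 1.19 (68.6 to 81 against 22.1 to 39) and the 6 gave 0.84 (42.4 to 44.9 against 20.9 to 30.2, adjusted p = 0.0640). Its signal of 41.7 per kb was at or above that of 96.2% of the tested H3K27ac regions.

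The regions on either side of it differed less. Region 6, chr18:61292617-61294380, ran from 28.2 to 45.9 (median 35.05) in GFP-positive against 12.7 to 38.7 (median 21.3) in GFP-negative libraries, and was higher by log2 0.70 (SE 0.17, limma adjusted p = 0.0232), with 0.68 in the 10 libraries and 0.73 in the 6 (adjusted p = 0.188). Region 8, chr18:61295496-61297011, ran from 25.4 to 39.2 (median 34.2) against 10.4 to 31.8 (median 20.55), and was higher by 0.68 (SE 0.17, limma adjusted p = 0.0241), with 0.63 in the 10 libraries and 0.77 in the 6 (adjusted p = 0.195). Each of these 2 calls was lost in 6 of 16 fits that left out 1 library, with adjusted p up to 0.0704 and 0.0723, whereas those of regions 2 and 7 were lost in 0. Along the chain of adjoining regions from 61285312 to 61303683 the log2 difference went from -0.20 in region 5 through 0.70, 1.06 and 0.68 to 0.48 in region 9 (adjusted p = 0.136) and 0.21 in region 10, which ends outside the window. Regions 9 and 10 gave 0.58 and 0.18 in the 10 libraries and 0.32 and 0.25 in the 6. Region 5, chr18:61285312-61292616, the Csf1r region with the most H3K27ac signal, carried 99.0 ± 36.4 against 113 ± 37.1 (95% interval of the log2 difference -0.69 to 0.29), with -0.22 in the 10 libraries and -0.17 in the 6.

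The ATAC region with the most signal in the Csf1r window, chr18:61294044-61295100 (region 4, 1057 bp), overlapped H3K27ac regions 6 and 7. Its lowest, median and highest signals were 16.7, 35 and 52.2 in GFP-positive and 16.6, 23.6 and 26.2 in GFP-negative libraries. The GFP-negative libraries were close together, and 2 GFP-positive ones lay among them. The means were 34.1 ± 11.3 and 22.3 ± 3.60 (SD, n = 8 each), 1.45-fold higher (log2 0.53, SE 0.17, limma adjusted p = 0.0484), in 6 of 8 pairs. This call was at the edge of the threshold: it was lost in 13 of 16 fits that left out 1 library (adjusted p up to 0.145), with quantile normalization (0.0827), with no filter (0.114) and with a pseudocount of 0.1 (0.0773). Region 2, chr18:61289697-61290459, between both ends, carried 12.5 ± 3.80 against 9.71 ± 3.69 (log2 0.34, limma adjusted p = 0.366). All 3 called ATAC members thus overlapped H3K27ac members called in the same direction. The share of all called ATAC regions for which this holds was not computed.

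**Figure D4:**
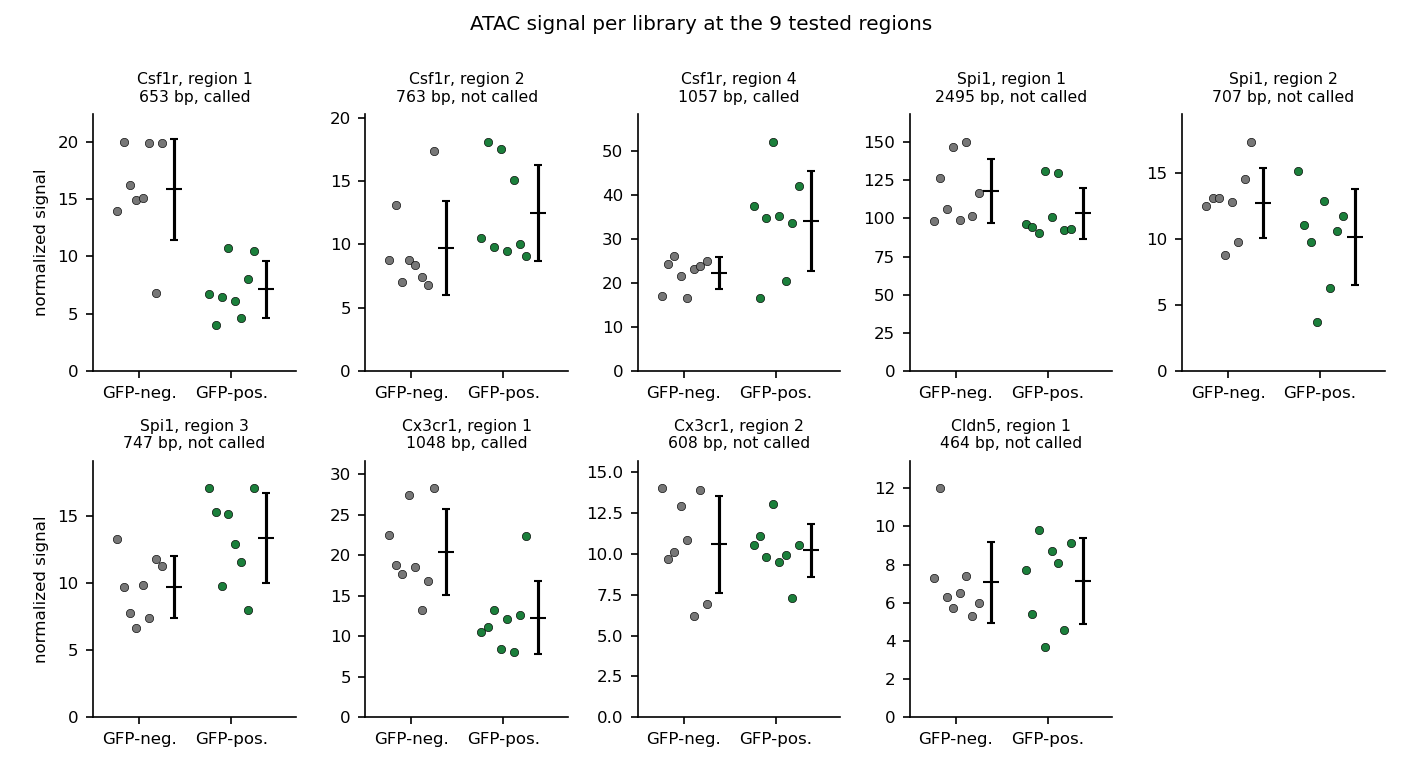
ATAC signal (vertical axis, normalized signal from 0) in every library at the 9 tested regions, for GFP-negative (grey) and GFP-positive (green) libraries, with the mean and SD of 8 libraries as bars. Csf1r region 1 and Cx3cr1 region 1 sit lower in GFP-positive libraries (means 7.14 against 15.9, and 12.3 against 20.4), Csf1r region 4 higher (34.1 against 22.3), and the Cldn5 region at the same level (7.14 against 7.06).

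The window of Spi1, the gene of PU.1, had 1 called region, and its 7 tested H3K27ac members all had a negative log2 difference, from -0.11 to -0.97. In the 6 libraries alone regions 1 and 8 had positive ones (0.10 and 0.22, against -0.23 and -0.53 in the 10). The called one, region 5 at chr2:90933470-90940502 (7033 bp), had a lowest, median and highest signal of 34.8, 53.85 and 132 in GFP-positive and of 91.8, 124.8 and 180 in GFP-negative libraries. All 8 pairs were lower in GFP-positive nuclei. The means were 74.2 ± 42.6 and 131 ± 34.9 (SD, n = 8 each), 1.96-fold lower (log2 -0.97, SE 0.28, limma adjusted p = 0.0445). The 10 libraries gave log2 -1.30 (34.8 to 65.9 against 91.8 to 137) and the 6 gave -0.43 (119 to 132 against 148 to 180, adjusted p = 0.0954). The sorts did not overlap in either set, but the call was lost in 11 of 16 fits that left out 1 library (adjusted p up to 0.117).

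The Spi1 region with the most signal, region 4 at chr2:90917065-90933469 (16405 bp), adjoins it. It ran from 149 to 421 with a median of 186 in GFP-positive and from 211 to 425 with a median of 278 in GFP-negative libraries. The 6 libraries were high in both sorts and the sorts overlapped. Its log2 difference of -0.47 (SE 0.22) was not called (limma adjusted p = 0.205). It was called in the 10 libraries alone (log2 -0.57, adjusted p = 1.25e-06) and with the set of 6 as a term (0.00027), and not in the 6 alone (log2 -0.31, adjusted p = 0.124).

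In ATAC 0 of the 3 Spi1 regions were called. The strongest, chr2:90909045-90911539 (region 1, 2495 bp), which begins outside the window, had 44.4 per kb, at or above 93.4% of the tested ATAC regions. Its lowest, median and highest signals were 90.3, 95.35 and 131 in GFP-positive and 98.2, 111 and 150 in GFP-negative libraries. The ranges overlapped, but the GFP-positive median lay below the lowest GFP-negative signal. GFP-positive was lower in 7 of 8 pairs, and the difference was not called (103 ± 16.8 against 118 ± 21.1, log2 -0.18, 95% interval -0.42 to 0.05, limma adjusted p = 0.335). Regions 2 and 3 had log2 differences of -0.36 and 0.41 (limma adjusted p = 0.313 and 0.207).

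The window of Cldn5, the endothelial tight junction gene, had no called region in either assay. The ATAC region chr16:18777174-18777637 (464 bp) had a lowest, median and highest signal of 3.7, 7.9 and 9.8 in GFP-positive and of 5.3, 6.4 and 12 in GFP-negative libraries. The sorts overlapped over most of their ranges. The means were 7.14 ± 2.26 and 7.06 ± 2.12 (SD, n = 8 each), a log2 difference of -0.01 (SE 0.26, limma adjusted p = 0.992). Its 95% interval ran from -0.54 to 0.53, and the signal was near the filter's limit, a mean of 5.44. The direction of so small a difference turned with quantile normalization (0.10) and with a pseudocount of 5 (0.0020).

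Of the 3 Cldn5 H3K27ac regions, region 3 at chr16:18778217-18781089 had the most signal. It ran from 10.9 to 45.1 with a median of 20.9 in GFP-positive and from 17.1 to 74.9 with a median of 30.9 in GFP-negative libraries. The sorts overlapped, and GFP-positive was lower in 7 of 8 pairs. The means were 25.2 ± 11.4 and 38.9 ± 20.9 (SD, n = 8 each), with a log2 difference of -0.56 (95% interval -1.19 to 0.07, limma adjusted p = 0.266). The difference was -0.47 in the 10 libraries (adjusted p = 0.0924), -0.70 in the 6 (adjusted p = 0.108), and called with the set of 6 as a term (adjusted p = 0.0181). Region 2, chr16:18776995-18778216, over the ATAC region, carried 30.1 ± 6.52 against 29.0 ± 9.02 (log2 0.08, 95% interval -0.40 to 0.56), and region 1 had a log2 difference of 0.09 (95% interval -0.79 to 0.98). Both turned sign between the sets: region 2 gave -0.05 in the 10 libraries and 0.29 in the 6, and region 1 gave 0.56 and -0.69.

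Fasting and leptin were then examined. In each treatment taken alone, 0 members were called between sorts in ATAC (background 0.0160% in Fed, 0.0548% in Fast, 0.199% in Lep2 and 0% in Lep24) and 0 in H3K27ac (0.103% in Fast and 0% in the others). At an unadjusted limma p under 0.05, 2, 2, 1 and 0 of the 9 ATAC members and 4, 7, 4 and 6 of the 24 H3K27ac members passed in Fed, Fast, Lep2 and Lep24. Over all regions these shares were 8.70%, 11.6%, 11.8% and 6.21% in ATAC and 7.64%, 13.6%, 6.86% and 7.79% in H3K27ac. With the set of 6 as a term, 18 such tests were called in H3K27ac (3 in Fed, 7 in Fast, 3 in Lep2 and 5 in Lep24), beside a background of 2.91%, 10.0%, 2.27% and 3.29%. A limma F test of whether the sort difference varied over the 4 treatments called 0 members and 0% of all regions in either assay, and its smallest unadjusted p among members was 0.209 in ATAC and 0.238 in H3K27ac.

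At each of the 12 regions called, the difference between sorts had the same sign in all 4 treatments. The regions were called on the mean of these 4 differences, so a shared sign is largely set by that choice and is no separate result. At the Csf1r ATAC region 1 the pair of GFP-positive signals was 4 and 6.7 in Fed, 6.5 and 10.7 in Fast, 4.6 and 6.1 in Lep2 and 8 and 10.5 in Lep24, against GFP-negative signals of 14 and 20, 14.9 and 16.2, 15.1 and 19.9, and 6.8 and 19.9. The groups separated in Fed, Fast and Lep2 and overlapped in Lep24, with log2 differences of -1.52, -0.82, -1.54 and -0.33 (SE 0.46 each). At the Csf1r H3K27ac region 7 the log2 differences were 0.77, 0.99, 1.33 and 1.15 (SE 0.34 each), and at Cx3cr1 H3K27ac region 3 they were -1.15, -1.72, -1.12 and -1.09 (SE 0.60 each).

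**Figure D5:**
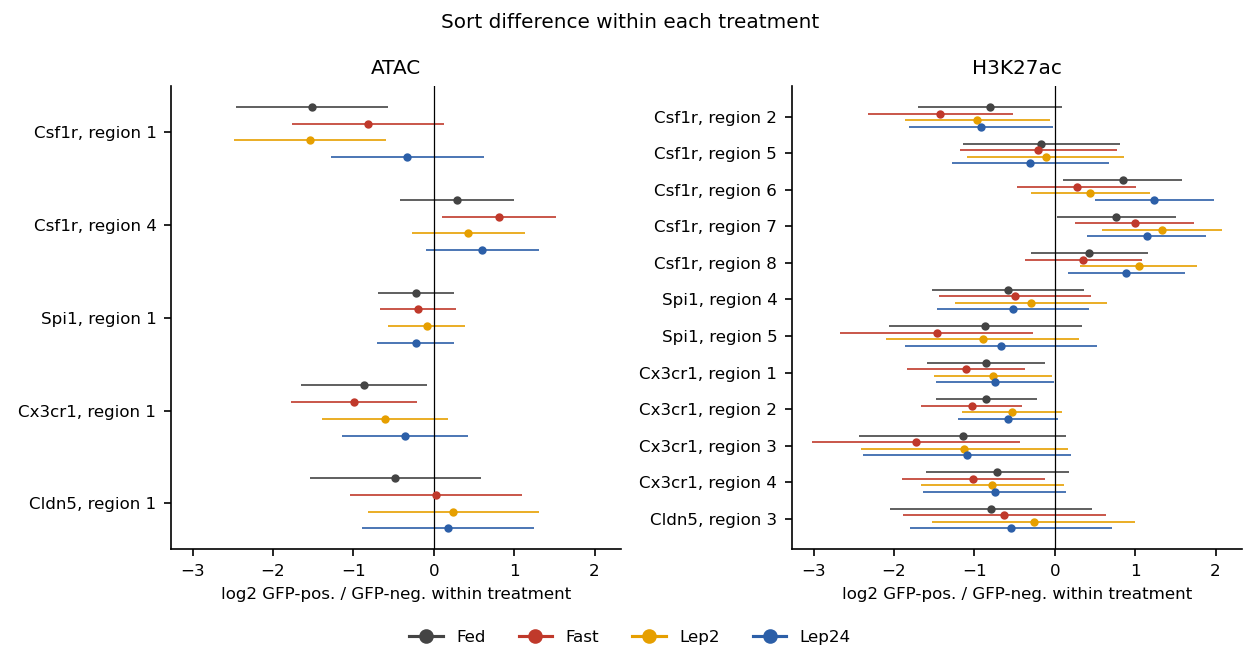
Difference between sorts within each treatment (horizontal axis, log2 of GFP-positive over GFP-negative) with 95% intervals, for the called regions and the region of each gene with the most signal, ATAC at the left and H3K27ac at the right. The 4 intervals of a region overlap one another throughout, for example -1.52, -0.82, -1.54 and -0.33 at the ATAC region 1 of Csf1r.

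Changes between treatments were tested for fasting (Fast against Fed) and for either leptin schedule (Lep2 or Lep24 against Fast), in each sort and as a difference between sorts. By limma 0 of 81 such member tests were called in ATAC and 0 of 216 in H3K27ac, where 0% of all regions were called in every contrast. An unadjusted p under 0.05 was found in 2 of 81 (2.47%) and 8 of 216 (3.70%), against 1.49 to 7.85% of all ATAC regions and 1.91 to 6.05% of all H3K27ac regions over the contrasts. The members' shares lie within those ranges. The smallest p was 0.00361, at Csf1r H3K27ac region 6 for Lep24 against Fast in GFP-negative nuclei (log2 -1.21, limma adjusted p = 0.714). The largest log2 value, -2.35 for Fast against Fed in GFP-negative nuclei at Cldn5 H3K27ac region 1, rested on signals of 0 and 7.4 in Fast and 7.3 and 25.4 in Fed (limma adjusted p = 0.716). With 2 libraries per group the median half-width of the unadjusted 95% interval within a sort was 0.89 log2 units in either assay. For a difference between sorts it was 1.25 in either assay. Changes smaller than these could not be resolved, and a call after adjustment over all regions generally needed a larger change. Neither Fast replicate belongs to the 6 libraries. In H3K27ac a change against Fast and the set of libraries therefore cannot be told apart without the term for the set. With it 0 members were called, and the share of all regions called in those contrasts was not computed.

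The authors' deposited table holds their own comparison of the sorts. Its label names no treatment, so the libraries it used are not known and may differ from the 16 above. At Csf1r H3K27ac region 3 it gave log2 -0.54, where limma over the 4 treatments gave -0.02. GFP-positive means there were below GFP-negative ones in Fed (17 against 22.4) and Fast (13.95 against 22.75). They were above them in Lep2 (16.55 against 12.5) and Lep24 (18.85 against 11.35). Why its calls differ from those of limma was not tested. Of the 20 H3K27ac members with an FDR in the authors' deposited table, 9 were under 0.05 (8 lower and 1 higher), where 15.4% of all regions were, and 0 of the 8 ATAC members with an FDR, where 0.408% were. The higher one was Csf1r region 7, with a log2 fold change of 0.89 and an FDR of 0.000946 in the authors' deposited table. Within Fast, Lep2 and Lep24 the authors' deposited table gives it FDRs of 0.0199, 0.0137 and 0.0397, and gives Csf1r region 2 FDRs of 3.52e-05, 0.0443 and 0.0272. These were the only H3K27ac members under 0.05 there in Lep2 and in Lep24 (2 of 14 with an FDR in each). In Fast 7 of 19 were (6 lower and 1 higher), with Cx3cr1 regions 1 to 4 and Spi1 region 5 beside them. The shares of all regions within treatments were not computed for the authors' deposited table. Spi1 region 4 and Cldn5 region 3, not called by limma above, had log2 fold changes of -0.55 (FDR 0.00133) and -0.93 (FDR 0.0202) in the authors' deposited table. Csf1r regions 6 and 8, called above, had FDRs of 0.155 and 0.471 there, in the authors' deposited table. The ATAC regions of Csf1r (region 1) and Cx3cr1 (region 1) had log2 fold changes of -1.23 and -0.94 with FDRs of 0.260 and 0.300 in the authors' deposited table. Csf1r ATAC region 4, called higher above, had a log2 fold change of 0.65 with an FDR of 0.362 in the authors' deposited table.

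For each gene's ATAC region with the most signal, the 3 regions elsewhere with the most similar pattern were found by the root-mean-square difference of centred log2 signal over the 16 libraries, among 43758 regions. No gene was read for these mm9 regions. For Spi1 region 1 the nearest was chr10:80136947-80141469, at 0.0838 (the third at 0.0968), where the median over all regions was 0.455. For Cx3cr1 region 1 it was chr12:117327176-117327427, at 0.211 (the third at 0.271, median 0.632), for Csf1r region 4 chr4:107403513-107404616, at 0.247 (the third at 0.283, median 0.590), and for Cldn5 region 1 chr4:147454787-147456836, at 0.218 (the third at 0.227, median 0.529). The Spi1 pattern was matched most closely, and it was also the region with the most signal. The nearest of so many regions is a description and carries no test.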

How the data were processed

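ATAC-seq and H3K27ac ChIP-seq of sorted nuclei were analysed, and the RNA (23), ChIP input (16) and ATAC input (4) samples were left aside. The authors deposited a normalized signal for every region and library, per the file headers, and how they normalized it is not stated in any source used here. Beside the signal they deposited their own comparisons as log2 fold changes, p-values and FDR, quoted only as theirs. Build mm9 comes from the submitters' processing notes, which list, with no step assigned, MACS2, DESeq2 1.16.1, HTSeq 0.6.0, Bowtie2 2.2.6, Bowtie 1.2, STAR 2.5.2b and CASAVA 1.8.

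Low signal values fell on unequal steps (9 to 40 distinct values below 20 per ATAC library, 12 to 63 per H3K27ac library), so whole reads were not recovered and no count model was used. Regions in the lowest 10% of mean signal (5.44 for ATAC, 5.96 for H3K27ac) were left out, and log2(signal + 1) went into limma (3.58.1, under R 4.3.3 with data.table, version 1.17.8) with a mean for each of 8 groups and an intensity trend. P-values are two-sided, adjusted by Benjamini-Hochberg over all regions tested. Fold changes on this scale understate changes of low regions. Fits within the 10 or the 6 H3K27ac libraries had terms for treatment and sort, and none for a sort difference that varies with treatment. Plots used matplotlib 3.10.9. Coordinates are mm9 and count from 1; a region was a member at 1 bp of overlap.

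The genes, windows, lists and tests were chosen with earlier results of these data known. Named regions were, per gene and assay, that with the highest mean signal and every called one. Alternatives were no filter, quantile normalization, a pseudocount of 0.1 or 5, replicate blocks, only the groups compared, an adjusted p of 0.01, each library left out, library weights, the set of 6 libraries, and regions wholly inside the windows.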

Additional observations from a re-analysis of the deposited data

Results flagged for a closer look

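At 34 combinations of a named region and a sort, the 8 libraries were checked for 1 library far from the rest (gap to the nearest library over the whole range above Dixon's 95% critical value), and 3 had one. Chance gives such a gap in about 1 in 20 groups. At the Csf1r ATAC region 1, Lep24 GFP-negative replicate 1 had a signal of 6.8, where the next GFP-negative library had 14 and the highest 20. At the Cx3cr1 ATAC region 1, Lep24 GFP-positive replicate 2 had 22.4, where the next GFP-positive library had 13.2. At the Cldn5 ATAC region, Fed GFP-negative replicate 2 had 12, where the next GFP-negative library had 7.4. All 3 were in ATAC and none in H3K27ac.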

How the results depend on the processing

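In ATAC, the 3 members called between sorts became 1 at an adjusted p of 0.01 (3.11% of all regions, from 9.80%) and 1 to 3 when 1 library was left out (5.61 to 13.0% of all regions; 1 without Fast GFP-negative replicate 2, Lep2 GFP-negative replicate 1, Lep24 GFP-negative replicate 2 or Lep24 GFP-positive replicate 1). In H3K27ac, the 9 became 4 at an adjusted p of 0.01 (2.74%, from 9.22%), 1 in the 6 libraries (background 4.10%), 13 in the other 10 (background 32.4%) and with the set as a term (26.6%), and 4 to 10 when 1 library was left out (4.56 to 12.2%; 4 without Fed GFP-positive replicate 2, Fast GFP-positive replicate 1 or Lep24 GFP-positive replicate 2, and 5 without Fast GFP-negative replicate 2). Within treatments, 0 H3K27ac calls became 10 with only the groups compared (all in Fast, background 20.7%) and 7 with library weights (all in Fast, 14.2%). They became 18 with the set as a term, and 0 to 1 when 1 library was left out. For those left-out fits the share of all regions within treatments was not computed. The cause was not tested. The Cldn5 ATAC difference turned to 0.10 with quantile normalization and 0.0020 with a pseudocount of 5, and ran from -0.16 to 0.14 when 1 library was left out. Over named regions and alternatives, 85 of 115 ATAC values and 263 of 312 H3K27ac values kept their direction and side of the threshold, 20 and 42 lost the call, 0 and 7 gained one, and 10 and 0 turned sign, all 10 at Cldn5.

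Same-numbered libraries of a treatment deviated together in some groups and not in others (correlation between sorts of 0.0375 to 0.141 in ATAC and of 0.00967 to 0.495 in H3K27ac), so no pairing was assumed in the tests. The replicate number as a block gave 3 ATAC and 10 H3K27ac calls between sorts (background 14.2% and 16.2%) and 5 H3K27ac calls within treatments (all lower, in Fast, background 3.36%), and each pair of libraries as a block gave 3 and 13 (14.8% and 25.1%).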
